A study of Mus musculus with 20 samples.

Results

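The regions described here are 1070 intervals of the mouse liver genome that carried H3K27ac in livers without Ppara and not in livers with it. They were taken from the 65776 intervals of the authors' H3K27ac consensus set, of which they make up 1.63%. An interval was chosen when a called H3K27ac peak overlapped it by at least 1 base in at least 3 of the 4 Ppara-null libraries and in none of the 4 Ppara-intact libraries. The regions were thus chosen by the H3K27ac calls themselves, so the absence of H3K27ac peaks in Ppara-intact livers is a description and was not tested.

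Chromatin immunoprecipitation with sequencing (ChIP-seq) was done on livers of 9-week-old male C57BL/6 mice that had been fasted for 24 h. The Ppara-intact groups were wild type (WT) and a knockout of Cpt2 limited to the liver (Cpt2 KO); the Ppara-null groups were the Ppara knockout (Ppara KO), labelled as a knockout with no tissue named, and the Cpt2 and Ppara double knockout (DKO). Each of the 4 genotypes had 2 livers for H3K27ac and for H3K4me1, and 1 WT and 1 Cpt2 KO liver were profiled for H3K9ac. Animal numbers in the deposited files were the same for both marks in 8 of 8 libraries and named 8 different animals, so H3K4me1 was read in the same livers that served to choose the regions. All groups shared the fast, the sex and the age, and no fed liver was analysed here. Livers were taken whole, so more cells of a type and more of a mark per cell cannot be told apart in these data. Peak lists held from 44454 to 48929 H3K27ac peaks and from 61189 to 72151 H3K4me1 peaks per library; depth in reads is unknown.

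PPARα, the protein encoded by Ppara, is a nuclear receptor that is activated by fatty acids and, paired with RXR, turns on genes of fatty acid oxidation and ketone production in the fasting liver. Cpt2 encodes the inner-membrane carnitine palmitoyltransferase that long-chain fatty acids need to enter mitochondrial oxidation. H3K4me1 marks enhancers whether or not they are active, H3K27ac is added at active enhancers and promoters, and H3K9ac is found mainly at active promoters.

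Promoters made up a small share of the regions. Of the 1070 regions, 41 (3.83%) overlapped a RefSeq promoter window, which runs from 250 bases before to 50 bases after an annotated start, against 15.2% of all intervals. The regions touched 48 such windows of 44 gene symbols. Printed next are the 4 windows that lay wholly inside a region and belonged to the regions with the highest H3K27ac fold among those over a promoter. Each is shown 5′ to 3′ on the strand of its gene, as the 250 bases before the start and the first 30 after it, from RefSeq on GRCm38.p6, the assembly that mm10 names. Capitals mark the half-site AGGTCA, the element bound by PPARα and other nuclear receptors, and the AP-1 element TGANTCA, both searched on both strands.
Gm33424 (predicted gene beside Nfil3), chr13:52985715-52985994, plus strand: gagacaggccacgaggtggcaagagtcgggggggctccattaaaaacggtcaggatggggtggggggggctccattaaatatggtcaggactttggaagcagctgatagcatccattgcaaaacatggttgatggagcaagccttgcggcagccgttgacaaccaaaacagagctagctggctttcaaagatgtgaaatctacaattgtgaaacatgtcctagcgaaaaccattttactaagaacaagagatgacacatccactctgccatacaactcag
Pde6h, chr6:136954273-136954552, plus strand: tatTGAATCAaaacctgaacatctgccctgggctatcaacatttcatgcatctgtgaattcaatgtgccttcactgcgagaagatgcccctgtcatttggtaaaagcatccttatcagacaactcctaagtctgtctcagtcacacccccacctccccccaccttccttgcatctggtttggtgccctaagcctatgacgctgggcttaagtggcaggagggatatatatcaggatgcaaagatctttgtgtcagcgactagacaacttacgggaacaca
Gm34056 (predicted gene near Zfp281), chr1:136662216-136662495, minus strand: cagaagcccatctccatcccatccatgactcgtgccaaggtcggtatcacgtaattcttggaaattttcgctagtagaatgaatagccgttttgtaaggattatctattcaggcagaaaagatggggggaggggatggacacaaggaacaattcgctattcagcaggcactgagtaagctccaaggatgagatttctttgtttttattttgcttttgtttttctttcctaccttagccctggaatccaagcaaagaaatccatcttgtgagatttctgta
Uchl4 (within the gene body of Map2k1), chr9:64234951-64235230, plus strand: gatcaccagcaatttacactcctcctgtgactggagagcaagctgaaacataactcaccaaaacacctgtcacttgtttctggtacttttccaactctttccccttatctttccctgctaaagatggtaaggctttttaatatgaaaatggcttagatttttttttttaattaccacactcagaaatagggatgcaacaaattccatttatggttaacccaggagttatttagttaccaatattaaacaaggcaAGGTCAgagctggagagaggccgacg
Pde6h held 1 AP-1 element and Uchl4 held 1 half-site just after its start, while the shown stretches of Gm33424 and Gm34056 held neither. The half-site was found in 8 of 48 windows under the regions (16.7%), beside 16.3% of all 32851 windows in the RefSeq table. DR1, which is 2 copies of AGGTCA separated by 1 base and is the element of PPARα with RXR, was in 0 of the 48 and in 0.0396% of all windows. The AP-1 element was in 8 of 48 windows (16.7%) beside 7.81% of all windows, the glucocorticoid receptor element ACANNNTGT in 3 (6.25%) beside 6.85%, the E-box CACGTG in 3 (6.25%) beside 7.15%, and the FOXA element TGTTTAC in 2 (4.17%) beside 3.65%. The cAMP response element TGACGTCA was in 1 window (2.08%) beside 1.79%, and the C/EBP element TTGCGCAA in 0 beside 0.183%. In the 12551 windows under any H3K27ac interval, 13.4% held the half-site and 5.33% the AP-1 element. These are counts of letters in few windows, and no test was made on them. The windows under the regions had a median GC content of 51.2% and a median of 6.5 CpG dinucleotides, beside 52.7% and 7 for all windows and 60.3% and 20 for windows under any H3K27ac interval.

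The regions lay farther from genes than H3K27ac intervals in general. In all, 52.7% of them lay in a protein-coding gene body, against 66.1% of all intervals, and 14.4% lay over 50 kb from one, against 7.92%. Their median distance to a RefSeq start was 18804 bases, beside 11638 bases for all intervals. The annotation used gives gene bodies without exons, so exonic and intronic regions are not separated here. H3K9ac was scarce at them: 6.82% overlapped an H3K9ac interval of the WT liver and 7.38% one of the Cpt2 KO liver, against 34.5% and 34.6% of all intervals. No H3K9ac library of a Ppara-null liver was analysed here, so these 2 values describe genotypes in which the regions carried no H3K27ac peak. Whether the H3K9ac livers were those profiled for H3K27ac is not shown. Intervals just outside the choice fell between the regions and all intervals, so gene distance and low H3K9ac were not particular to the regions. Those called in 2 Ppara-null and no Ppara-intact libraries had H3K9ac at 7.04% (WT) and 8.79% (Cpt2 KO). Of these, 55.5% lay in a gene body, 10.9% over 50 kb from one and 4.998% over a promoter window. Those called in at least 3 Ppara-null and 1 Ppara-intact library had 12.2%, 13.0%, 57.6%, 11.6% and 5.16% in the same order. For comparison, 1139 intervals showed the opposite pattern, with H3K27ac in at least 3 Ppara-intact and no Ppara-null libraries; 69.7% of those lay in a gene body and 29.1% overlapped WT H3K9ac. The regions had a median width of 603 bases and an upper quartile of 899.5, beside 619 and 1367 bases for all intervals and a median of 1448 bases for intervals called in at least 3 Ppara-null libraries.

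**Figure D1:**
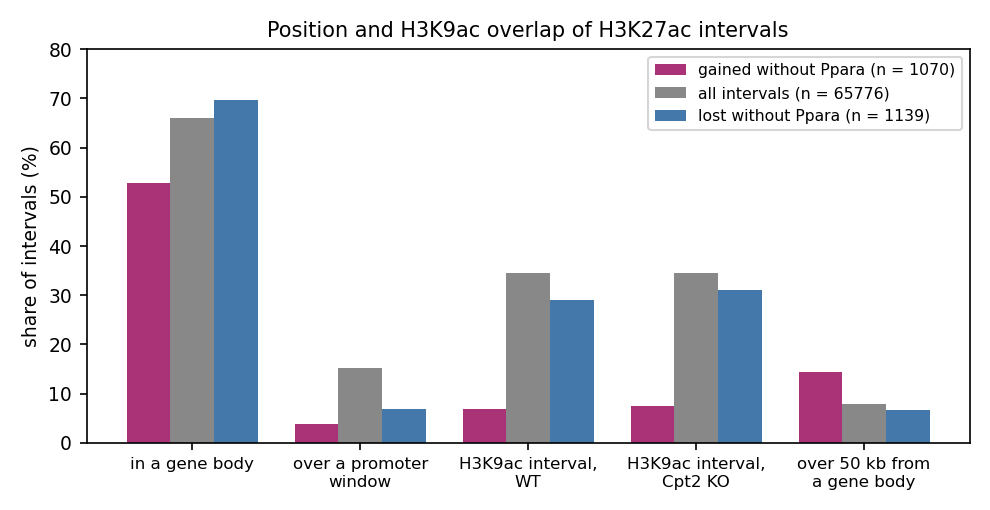
Bars give, for the H3K27ac regions gained without Ppara, all H3K27ac intervals and the intervals lost without Ppara, the share (%, linear axis from 0) in a gene body, over a promoter window, overlapping H3K9ac in the WT or Cpt2 KO liver, and over 50 kb from a gene body. The gained regions had the lowest share for the first 4 measures and the highest for the last, 14.4%.

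Many regions stood near H3K27ac that was present in livers with Ppara. The median gap from a region to the nearest interval called in at least 3 Ppara-intact libraries was 9170.5 bases; 227 regions (21.2%) lay within 1 kb of one and 374 (34.95%) beyond 20 kb. When regions no more than 20 kb apart were joined, 249 (23.3%) fell into runs of 2 or more. The 5 runs with the most regions held 4 each and spanned 7.88 to 23.4 kb; a run of 3 nearest to Atxn7l3b spanned 37.7 kb. The runs of 4 at Alcam, a cell adhesion molecule, and at Pik3c2a, a lipid kinase, lay in the gene body. The run of Nfil3, which encodes a leucine zipper repressor of the circadian output, lay 3136 to 18981 bases from it. A run 28567 to 37818 bases from its nearest gene bodies was assigned to Fbp1, the fructose bisphosphatase of gluconeogenesis, and Aopep. The nearest gene of the last run, at 91680 to 113878 bases, was Irf2bp2, a transcriptional corepressor.

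H3K27ac at the regions was weak next to that of other intervals of the same livers. Over the libraries in which a region was called, the fold enrichment of its peak over background averaged 6.50 in the median, from 3.46 to 29.2, and 82 regions (7.66%) exceeded 10. All 28817 intervals called in at least 3 Ppara-null libraries had a median of 9.36, and 45.1% of them exceeded 10. Intervals just outside the choice had medians of 6.04 (2 Ppara-null, no Ppara-intact libraries) and 6.65 (at least 3 Ppara-null, 1 Ppara-intact). Low fold was thus not particular to the regions, and the choice used the same H3K27ac calls, so this is a description. Fold enrichment here is the authors' value for the peak, and the highest peak overlapping an interval was used. Where values of several livers are listed below, those with Ppara come in the order WT, then Cpt2 KO, and those without Ppara in the order Ppara KO, then DKO, each with replicate 1 first. By library, the median fold at called regions was 5.87 and 6.00 in the Ppara KO livers and 6.48 and 7.25 in the DKO livers, beside 7.35, 8.0, 8.40 and 8.87 for all called intervals in the same order. Of the regions, 416 were called in all 4 Ppara-null libraries and 654 in 3. The absent library was a Ppara KO in 66.1% of those 654, close to the 64.7% found for all 5335 intervals called in exactly 3 Ppara-null libraries.

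The limits of the choice left similar intervals on both sides. Just outside lay 2401 intervals called in 2 Ppara-null and no Ppara-intact libraries, and 1259 called in at least 3 Ppara-null and 1 Ppara-intact library, where the intact peak had a median fold of 5.75. Among regions just inside, Ifit1bl1 had folds of 2.82 and 4.23 in Ppara KO and 7.60 in DKO replicate 1, and Sh3tc2 had 3.50, 3.67 and, in DKO replicate 2, 4.33. Among those just outside, the interval 15711 bases from BC107364 had folds of 8.60, 6.80, 11.2 and 13.2 in the Ppara-null livers and was left out for a fold of 3.50 in WT replicate 1. Uvrag, a gene of autophagy, was left out for 3.41 in WT replicate 2, and Fndc3b for 3.50 in Cpt2 KO replicate 2.

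The strongest region lay in the gene body of Acmsd (chr1:127754169-127757140), whose enzyme diverts a tryptophan breakdown product away from the synthesis of NAD. Its H3K27ac folds were 22.7, 24.6, 32.0 and 37.4 without Ppara, with both DKO livers above both Ppara KO livers before centring. On folds centred per library, the log2 difference of DKO against Ppara KO was 0.23 ± 0.14 (SE, limma adjusted p = 0.470). H3K4me1 at this region was not called in either WT liver; the Cpt2 KO livers had folds of 6.03 and 5.65, and the Ppara-null livers 9.23, 12.7, 13.9 and 18.2. Every Ppara-null liver was thus above both Cpt2 KO livers for H3K4me1, a mark that the choice of regions did not use. A region 68395 bases from Aldh8a1 (chr10:21464115-21465832), whose enzyme acts on the same tryptophan branch after Acmsd, had H3K27ac folds of 11.8, 10.8, 9.85 and 12.9. Its H3K4me1 folds were 5.95, 5.92, 7.52 and 5.46 with Ppara and 6.79, 14.4, 11 and 13.5 without. The groups overlapped there for H3K4me1, since Ppara KO replicate 1 was below Cpt2 KO replicate 1. Agxt2, a mitochondrial aminotransferase of glyoxylate and methylarginines, had a region in its gene body (chr15:10386274-10388236) with H3K27ac folds of 13.1, 14.2, 11 and 18.2. H3K4me1 was called there in none of the 4 Ppara-intact livers and with folds of 5.40, 9.17, 9.40 and 9.71 in the Ppara-null livers.

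Grin2b, a subunit of the NMDA glutamate receptor of neurons, had a region in its gene body (chr6:136013092-136014551) with H3K27ac folds of 15.5, 14.5, 23.3 and 29.7. H3K4me1 there had no peak in the 4 livers with Ppara and was called in the 4 without it, with folds of 7.67, 10.9, 15.1 and 18.4. The nearest interval called in at least 3 Ppara-intact libraries was 434610 bases away. A region 39918 bases from Pcdh20, a protocadherin (chr14:88424160-88425490), was still more isolated, 1006140 bases from such an interval, and had folds of 18.0, 13.8, 20.4 and 19.3. Its H3K4me1 was called in 1 Ppara-intact liver, Cpt2 KO replicate 1, at 6.40, and in the Ppara-null livers at 7.17, 8.83, 9.67 and 8.85. Pde6h, the inhibitory subunit of the cone phosphodiesterase, was not among the 12 strongest regions and had H3K27ac folds of 11.4, 8.94, 16.8 and 19.99 over its promoter window, with the sequence printed above, and H3K4me1 folds of 7.07, 6.32, 12.7 and 14.2 in the Ppara-null livers and no call in the Ppara-intact ones. No peak list measures transcription, so whether these genes were expressed is not shown.

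The other strongest regions had H3K4me1 with and without Ppara or followed another order. Beside Csnk1e, a kinase of the circadian PER proteins, and Parp16, an ADP-ribosyltransferase of the endoplasmic reticulum, H3K4me1 was called in 8 of 8 livers, and both are described with the test. The region chr13:52993818-52994897, 11479 bases from Nfil3, had H3K27ac folds of 11.3, 14.7, 20.2 and 19.8. Its H3K4me1 folds were 5.27 and 3.71 in the WT livers, 12 in Cpt2 KO replicate 1 with no call in replicate 2, and 8.10, 12.6, 15.0 and 17.6 in the Ppara-null livers. Dusp8, a phosphatase of stress-activated kinases, went against the rest: H3K27ac folds were 18.2, 10.2, 11.9 and 12.2, whereas H3K4me1 was called in 3 of 4 Ppara-intact livers (5.82, 4.0 and 6.69) and in 1 of 4 Ppara-null livers (5.96). The regions in BC016579, 31948 bases from Zfp281 and 117681 bases from Gm4802 had lowest H3K27ac folds of 10.9, 10.0 and 9.83 and highest of 19.4, 16.7 and 15.2. A region 38932 bases from Zbtb20, a repressor of fetal genes in hepatocytes (chr16:42836143-42837372), was not among the 12 strongest. Its H3K27ac folds were 19.8, 20.8, 9.48 and 23.8, with DKO replicate 1 lower by a wide margin.

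**Figure D2:**
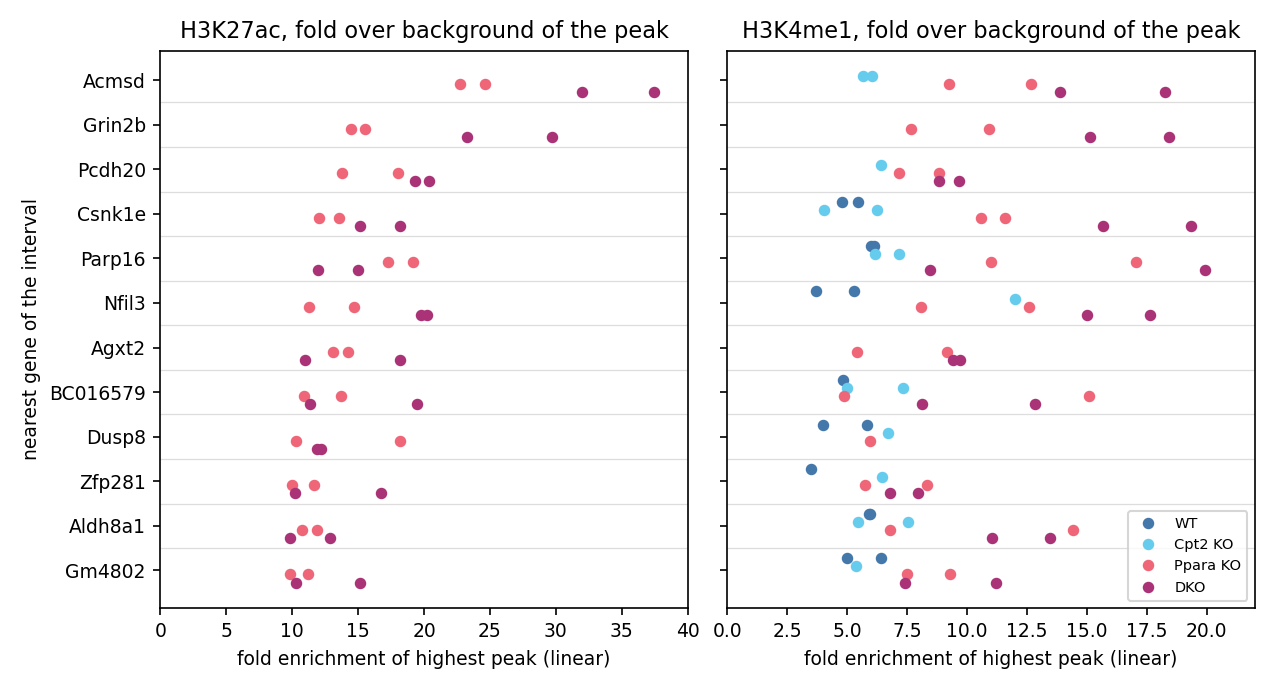
Points give the fold enrichment of the highest peak (linear axes) in each library for the 12 regions with the highest lowest H3K27ac fold over the 4 Ppara-null livers, H3K27ac on the left and H3K4me1 on the right, coloured by genotype; an absent point is a library without a peak. H3K27ac runs from 9.83 at Gm4802 to 37.4 at Acmsd, and H3K4me1 is absent from all 4 Ppara-intact livers at Grin2b and Agxt2.

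H3K4me1 was found at the regions more often in livers without Ppara. In the order of replicates, an H3K4me1 peak overlapped 28.6% and 30.6% of the 1070 regions in WT livers and 52.0% and 31.0% in Cpt2 KO livers. Without Ppara the shares were 57.8% and 71.3% (Ppara KO) and 72.8% and 77.4% (DKO). Every Ppara-null liver was above every Ppara-intact liver, although Ppara KO replicate 1 exceeded Cpt2 KO replicate 1 by less than the SD of 8.99 percentage points between livers of a genotype. The mean was 69.8% ± 8.44 (SD, n = 4) without Ppara and 35.5% ± 11 (SD, n = 4) with it, a difference of 34.3 percentage points. Over all 65776 intervals the shares ran from 47.3% to 52.6% and differed by 0.392 points. At the 1139 intervals that lost H3K27ac the difference was −30.1 points. With the regions kept and 1 H3K4me1 library left out at a time, the difference was from 31.8 points (without DKO replicate 2) to 39.8 points (without Cpt2 KO replicate 1, which stood apart from the other Ppara-intact livers). When the regions were chosen again without Ppara KO replicate 1 or 2 and with calls in 2 of the 3 remaining Ppara-null libraries, it was 22.2 and 21.0 points; with calls in all 3 required it was 39.97 and 39.5 points.

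The smallest peak width of a list, which moved with these shares, differed between libraries. It was 200 bases or less in both WT lists, Cpt2 KO replicate 2 and Ppara KO replicate 1, and 210 bases or more in Cpt2 KO replicate 1 and the other Ppara-null lists. Among lists of 210 bases or more, the share was 52.0% in the Ppara-intact liver and 71.3% to 77.4% in the 3 Ppara-null livers, a difference of 21.9 points. Among lists of 200 bases or less it was 28.6% to 31.0% in the 3 Ppara-intact livers and 57.8% in the Ppara-null liver, a difference of 27.7 points. The direction was the same within both classes, with 1 library on one side of each. The part of peak width in the shares was not tested.

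**Figure D3:**
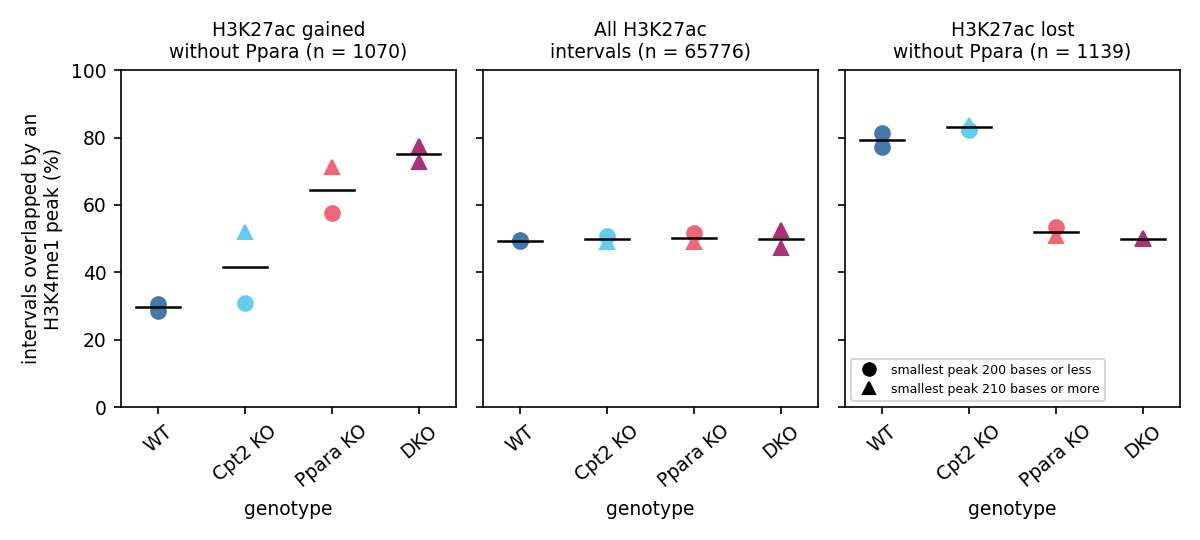
Each point is a library and gives the share (%, linear axis) of intervals overlapped by an H3K4me1 peak, by genotype, for gained regions, all intervals and lost intervals; lines are means of 2 livers, circles are lists whose smallest peak is 200 bases or less and triangles those of 210 bases or more. Gained regions run from 28.6% to 77.4%, while all intervals stay between 47.3% and 52.6%.

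Part of the regions gained both marks by call. H3K4me1 was called in at least 3 Ppara-null and no Ppara-intact livers at 153 regions (14.3%), beside 1.43% of all intervals. The opposite H3K4me1 pattern was found at 3 regions (0.280%), beside 1.98% of all intervals. Without Cpt2 KO replicate 1 the first count was 338 (31.6%), beside 5.85% of all intervals. H3K4me1 was called in no library at 156 regions and in all 8 at 170. Of the 405 regions without H3K4me1 in any Ppara-intact liver, Grin2b, Agxt2 and Pde6h are described above. Elfn1, a synaptic adhesion protein, had a region in its gene body (chr5:139937866-139938997) with H3K4me1 folds of 7.57, 7.71, 13.8 and 16.0 in the Ppara-null livers, 110766 bases from the nearest interval called in at least 3 Ppara-intact libraries. A region 50528 bases from Vwa5b1 (chr4:138513393-138514010) had 8.48, 14.5, 13.4 and 9.21, and one 41297 bases from Tgfb2, which encodes a profibrotic growth factor (chr1:186581328-186581653), had 7.11, 10.4, 11.3 and 12. In 3 of 4 Ppara-null livers each, H3K4me1 was called at Rad51b, a gene of homologous recombination (10.5, 10.3 and 12.7), 18577 bases from Yes1, a Src-family kinase (10.3, 12.1 and 8.25), and 501364 bases from Ptprc (6.68, 13.4 and 18.2); Ppara KO replicate 1 lacked the peak at all 3.

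The gain of H3K4me1 calls varied with the place of a region. It was 20.04 percentage points for the 227 regions within 1 kb of an interval called in at least 3 Ppara-intact libraries, 35.5 for the 469 at 1 to 20 kb and 41.4 for the 374 beyond 20 kb. With Ppara the mean shares fell in this order, at 42.8%, 38.5% and 27.3%. Without Ppara they were 62.9%, 74.0% and 68.7%. Regions with H3K9ac in either profiled liver (101) differed by 11.4 points, from 54.0% with Ppara to 65.3% without. Regions in gene bodies differed by 30.4 points and those outside by 38.6 points, with shares of 39.7% and 30.9% with Ppara and 70.1% and 69.5% without. The 416 regions called in all 4 Ppara-null libraries differed by 44.1 points and the 654 called in 3 by 28.1 points. These are descriptions over regions of the same 8 livers, and the differences between classes were not tested.

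Where H3K4me1 could be compared by size, no region passed the test. H3K4me1 folds were tested where the mark was called in all 8 libraries, which held for 170 of the 1070 regions and 17094 of all intervals, with limma on centred log2 folds and Benjamini-Hochberg adjustment over all intervals tested. By limma, 0 of 170 regions passed an adjusted p of 0.05, beside 0.0% of all intervals tested. At an unadjusted p under 0.05, 54 regions (31.8%) were higher without Ppara, beside 6.71% of all intervals tested, and 1 region (0.588%) was lower, beside 7.17%. The median log2 difference was 0.31 at the regions and close to 0 over all intervals, and it was above 0 at 139 regions (81.8%), beside 49.6% of all intervals. Folds of the 4 Ppara-null livers were all above those of the 4 Ppara-intact livers at 29 regions (17.1%), beside 2.89% of all intervals, and all below at 0, beside 3.09%. At the lost intervals tested, 349 in number, the median was −0.34. Since the filter asked for H3K4me1 in every liver, it left out the regions where H3K4me1 was absent with Ppara.

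**Figure D4:**
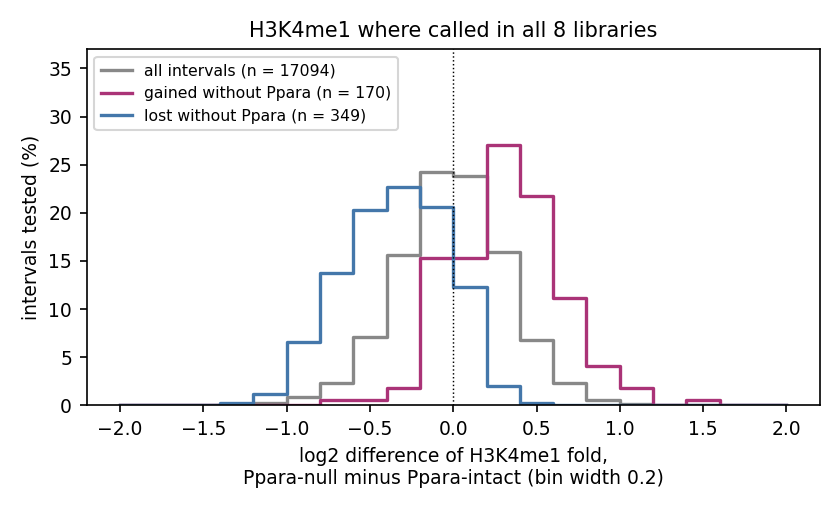
Lines give the share of intervals tested (%, linear axis) by log2 difference of the H3K4me1 fold, Ppara-null minus Ppara-intact, in bins of 0.2, for 17094 intervals of all kinds, 170 gained regions and 349 lost intervals. The gained regions are shifted to the right, with a median of 0.31, and the lost intervals to the left, with a median of −0.34.

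The 6 regions with the smallest p were all higher without Ppara for H3K4me1. At Csnk1e (chr15:79416207-79417953, 772 bases from the gene body) the H3K4me1 folds were 5.46, 4.80, 6.26 and 4.02 with Ppara and 11.6, 10.6, 15.7 and 19.3 without. The groups did not overlap, and limma gave a log2 difference of 1.46 ± 0.21 (SE) with an adjusted p of 0.0534. H3K27ac at Csnk1e was 13.5, 12, 15.2 and 18.2 in the Ppara-null livers. A region 55361 bases from Cryaa, a lens crystallin (chr17:31736363-31737820), had H3K4me1 folds of 5.21, 3.75, 4.62 and 4.86 with Ppara and 7.12, 7.12, 11.3 and 14.9 without. The log2 difference was 1.08 ± 0.20 (SE), with an adjusted p of 0.0565 from limma. In the run nearest to Irf2bp2, at the region 109922 bases from that gene body (chr8:126703050-126704767), the folds were 3.79, 3.31, 6.35 and 4.0 with Ppara and 7.78, 9.81, 7.36 and 10.2 without, a log2 difference of 1.05 (adjusted p from limma 0.0719). A region 4370 bases from Parp16 (chr9:65242086-65245094) had 5.99, 6.12, 7.17 and 6.16 with Ppara and 17.0, 11, 19.9 and 8.44 without, which limma put at a log2 difference of 1.08 ± 0.27 (SE) and an adjusted p of 0.126. Gsdmd, a pore-forming protein of inflammatory cell death, and Rapgef2, a guanine exchange factor for Rap, had log2 differences of 0.88 and 0.81 (limma adjusted p = 0.0851 and 0.124). At Rapgef2 the groups overlapped, because Cpt2 KO replicate 1 was at 8.17 and the Ppara KO livers at 7.20 and 7.35.

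Leaving out Cpt2 KO replicate 1 kept the direction, but not the result that no region passed. The fit without that library leaves the Cpt2 KO group with 1 liver assumed to vary like the others. Its median log2 difference was 0.29 over the 183 regions tested, beside −0.005 over 17934 intervals. At Csnk1e the difference was 1.63, and at a second region of the run nearest to Irf2bp2 0.92. It was 0.94 at a region in the gene body of Gpr55, a lipid-sensing receptor. A region 8206 bases from Bag3, a co-chaperone, had 0.84. These last 2 were chosen after their values were seen. Whether the effect of Ppara on H3K4me1 differed between livers with and without Cpt2 was tested in the fit of all 8 libraries. By limma 0 of 170 regions passed this interaction test (lowest adjusted p = 0.9996), and 0 of 17094 intervals did. At an unadjusted p under 0.05, 5 of the 170 regions were higher, beside 1.72% of all intervals. Lower were 4 regions, beside 1.22% of all intervals.

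Within the Ppara-null livers, the additional loss of Cpt2 was compared over the 416 regions called in all 4, a contrast the choice did not use. By limma 0 of 416 regions passed, beside 0.00426% of 23482 intervals tested. At an unadjusted p under 0.05, 23 regions (5.53%) were higher in DKO, beside 6.17% of intervals, and 23 (5.53%) were lower, beside 9.11%, both near or below the background. Summed H3K27ac folds of macrophage markers were 83.7 and 103 in the Ppara KO livers and 168 and 197 in the DKO livers, and their part in this contrast was not tested. The median log2 difference was −0.04, beside 0.01 over all intervals tested. Folds were centred on each library's median, and without centring 9 of the regions passed, all higher in DKO, among 437 higher and 26 lower intervals, with the median of all intervals at 0.33.

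The 4 regions with the smallest p were Nfil3, 4931408C20Rik, Syk and Fcamr. At Nfil3 the region over the Gm33424 window printed above (chr13:52984764-52987265) had H3K27ac folds of 11 and 7.29 in the Ppara KO livers against 21.3 and 29.7 in the DKO livers. The genotypes did not overlap, and limma gave 1.17 ± 0.27 (SE) on the log2 scale with an adjusted p of 0.148. A region whose nearest gene, 4931408C20Rik, lies 818986 bases away (chr1:27506151-27506742) had folds of 6.75 and 5.71 against 17.3 and 15.2, a log2 difference of 1.07 (limma adjusted p = 0.155). Syk, a tyrosine kinase of immune receptors, is the nearest gene of a region at 87488 bases (chr13:52735584-52736977) with 3.71 and 3.86 against 7.80 and 13.0, a log2 difference of 1.09 (limma adjusted p = 0.163). Fcamr, a receptor for IgA and IgM (chr1:130769806-130771155), was lower in DKO, at 8.17 and 6.13 against 4.29 and 4.57, a log2 difference of −0.997 (limma adjusted p = 0.182).

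**Figure D5:**
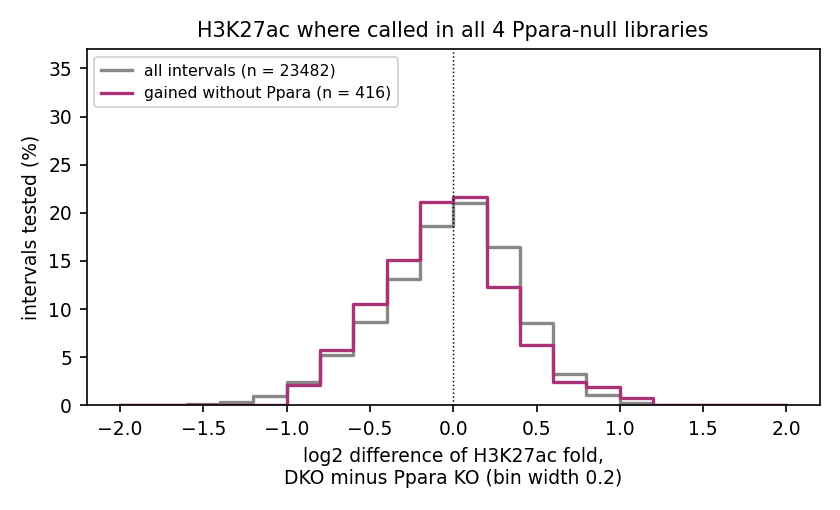
Lines give the share of intervals tested (%, linear axis) by log2 difference of the H3K27ac fold, DKO minus Ppara KO, in bins of 0.2, for 23482 intervals of all kinds and the 416 regions called in all 4 Ppara-null libraries. Both centre near 0, with medians of 0.01 and −0.04.

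By nearest gene body the regions were assigned to 849 of 21900 protein-coding genes (3.88%). Most of these genes, 687, had 1 region, and 12 had at least 4. Rad51b had 7 of the 84 intervals assigned to it, and 1700017B05Rik, Alcam and Zbtb16 had 5 each. Zbtb16, a zinc finger factor also known as PLZF, had regions whose H3K27ac folds ran from 4.29 to 8.60, and 3 of the 5 had H3K4me1 in all 8 livers. At Alcam, by contrast, none of the 5 regions had an H3K4me1 peak in a Ppara-intact liver. Snd1, Gm17359 and Pik3c2a had 4 each, with single folds of up to 20.6, 15.9 and 10.0.

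Of the genes of fasting glucose production, 7 of 24 (29.2%) had an assigned region, and 4 (16.7%) had a lost interval. All 24 had an H3K27ac interval. Of all 13200 protein-coding genes with such an interval, 6.43% had a gained region and 6.68% a lost interval. Over all lists together the shares were 8.94% and 13.8% of genes with an interval. The lymphocyte and neutrophil markers described below had a higher share of genes with an interval, 2 of 5 (40%), but a lower share of their full list, 11.1%. Fbp1 had 2 regions, the stronger (chr13:62919746-62920672, 31911 bases away) with H3K27ac folds of 6.33, 11.7, 10.3 and 13.8 and no H3K4me1 in WT. Ppargc1a, the PGC-1α coactivator of gluconeogenic and mitochondrial genes, had a region at 7653 bases (chr5:51445534-51447658) with 7.36, 10.0, 8.0 and 7.64. Sik1, a kinase that restrains CREB coactivators, had a region at 9962 bases (chr17:31833906-31834667) that was not called in Ppara KO replicate 2 and had folds of 5.0, 6.21 and 10.3 in the others. H3K4me1 at this Sik1 region was 4.80, 6.85, 8.81 and 11 with Ppara and 15.7, 6.95, 14.8 and 15.3 without, a log2 difference of 0.75 with overlapping groups (limma adjusted p = 0.220). A region 92886 bases from Cebpb, a bZIP factor of the fasting response, had 5.44, 6.00 and 7.45, and Nr4a1, Sds and Fkbp5 had a region each or more. With genes limited to regions within 1000 bases of the gene body, the count for this list was 4.

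Fatty acid oxidation, the main PPARα programme, had 1 of 43 genes with a gained region (2.33%), beside 15 with a lost interval. That gene was Pdk4, the kinase that switches off pyruvate dehydrogenase in fasting (chr6:5486747-5487356), with H3K27ac folds of 4.80, 5.0 and 5.0, near the low end of all regions. Lists of lipid synthesis and of lipid storage had 1 of 22 and 2 of 15 genes. Of these, Mogat1, which makes diacylglycerol, had 2 regions in its gene body, the stronger with 7.34, 8.86, 8.83 and 9.39 (chr1:78567372-78568288), and Pparg, the adipose relative of Ppara, had 1 with 5.56, 6.54 and 5.17 in 3 livers. Cholesterol synthesis had 2 of 22 genes, Lss (4.76, 6.85, 5.73 and 6.11) and Insig1, and bile acid and cytochrome P450 genes had 2 of 25, Cyp7b1 and Cyp17a1. The amino acid and stress response had 2 of 21, Asns, asparagine synthetase (9.17, 6.97 and 6.23), and Cth, cystathionine γ-lyase (6.68, 9.64, 9.40 and 7.83). Immediate early and growth genes had 2 of 29: Igf1, with 6.12, 11.2, 9.33 and 8.70, and Myc, with 7.60, 8.77, 5.51 and 18.6 at 27339 bases. Tgfb2 was the 1 gene of 33 listed for fibrosis and adhesion, and the acute phase list had 0 of 33. Hepatocyte factors had 6 of 48, Cebpb, Onecut2, Ppara, Pparg, Trim24 and Zbtb20, beside 15 with a lost interval, and the circadian list had 2 of 20, Nfil3 and Bhlhe40. These shares stand beside 3.88% of all protein-coding genes, or 6.43% of the 13200 with any H3K27ac interval.

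Ppara itself had 1 region, in its gene body (chr15:85801195-85801691), with H3K27ac folds of 6.08, 6.15, 7.33 and 9.90. H3K4me1 there was called in WT replicate 1 (5.79) and Cpt2 KO replicate 2 (4.69) and in none of the Ppara-null livers, opposite to most regions. Within 1 Mb of Ppara 4 of 132 intervals were gained regions (3.03%), beside 1.63% of all intervals, and within 1 Mb of Cpt2 2 of 140 were (1.43%). The lists hold peaks only, so the deletions were not checked from transcripts.

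Markers of the cells a whole liver holds were read from the same lists. Regions were assigned to 2 of 19 hepatocyte markers (Alb and Arg1), 2 of 21 macrophage markers (Clec4f and Csf1r), 2 of 18 lymphocyte and neutrophil markers (Ptprc and Cd74), 1 of 14 stellate markers (Dcn), 1 of 13 cholangiocyte markers (Muc1) and 0 of 15 endothelial markers. In every library 13 to 15 of the 19 hepatocyte markers had H3K27ac within 1000 bases of the gene body. Lymphocyte and neutrophil markers had such H3K27ac at 1 to 2 of 18 genes in Ppara-intact and 2 to 5 in Ppara-null livers, with summed folds of 6.85 to 19.9 and 16.1 to 48.9. Macrophage markers had it at 7 to 14 of 21 and 9 to 15. Their summed folds were 73.2, 66.1, 159 and 153 with Ppara and 83.7, 103, 168 and 197 without, higher in every liver without Cpt2 than in any with it. Adgre1, a macrophage surface marker, was called in Cpt2 KO replicate 2 and both DKO livers only. Clec4f and Csf1r of the same list were called in every liver. The stellate and endothelial lists had the same order: summed folds were 28.5 to 46.4 and 173 to 208.6 in livers with Cpt2, and 67.1 to 83.8 and 269 to 307 in livers without it. These sums are of folds that were not centred. The median fold over all H3K27ac peaks of a library was also higher without Cpt2, at 7.42 to 8.21 against 6.69 to 7.17. So was the smallest peak width of an H3K27ac list, at 217 to 223 bases against 198 to 210. Summed hepatocyte marker folds were 260, 260, 282 and 242 with Ppara and 210, 262, 263 and 319 without. The part of library scale or peak width in the order by Cpt2 was not tested. Endothelial markers had H3K27ac at 14 to 15 of 15 genes in both Ppara groups. Cholangiocyte markers had it at 3 to 5 and 4 to 6 of 13. Part of the immune-gene regions was strongest in DKO replicate 2: Cd74, an invariant chain of antigen presentation, had 9.59, 8.75, 10.6 and 19.8, and the strongest of 3 regions whose nearest gene, at 311105 to 501364 bases, was Ptprc, the leukocyte antigen CD45, had 6.97, 7.43, 8.09 and 20.8. Within 1000 bases of Ptprc itself H3K27ac had folds of 10.7 and 11.6 in Cpt2 KO, no call in WT, and 6.50, 6.85, 10.04 and 9.60 without Ppara, so it did not separate livers by Ppara. Within 1000 bases of Cd74 it was also called with Ppara, at 6.02 in WT replicate 1 and 8.19 and 8.27 in Cpt2 KO. WT replicate 2 had no call there, and the livers without Ppara had 9.59, 8.75, 11.2 and 19.8. The part of cell composition in the regions was not tested.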

How the data were processed

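H3K27ac and H3K4me1 were profiled in 2 livers of each of 4 genotypes and H3K9ac in 2 livers. Per the submitters' processing notes, BWA, MACS2 2.1.0 and mm10 were used. The authors deposited 1 list of narrow peaks per library, whose fold enrichment is a ratio to local background and whose p and q are given as −log10 values; the smallest −log10 p of a list ran from 7.02 to 7.03. Peaks were called per library. Peak names of 1 H3K27ac list, Ppara KO replicate 2, carry another build word; its called intervals overlapped those of its replicate with a Jaccard index of 0.702, against 0.664 to 0.752 in the other genotypes, and it was used as mm10. The consensus intervals hold positions, deposited by the authors without values. Read depth and duplicate handling are not given in the sources used here, so the precision of a single fold is unknown.

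Here, each interval took the highest overlapping peak of a library (at least 1 base). Log2 folds were centred per library, and differences were fitted in limma 3.58.1 under R 4.3.3 (trended eBayes; adjusted p of 0.05), which was tested on simulated data. The H3K4me1 fit held 8 libraries in 1 fit of 4 genotype means, the DKO fit 4. Each interval was assigned to the nearest of 21900 protein-coding gene bodies (RefSeq, GRCm38.p6). The regions, the 18 gene lists and the rule for named regions were chosen with earlier results of these data known. Named were the 12 regions with the highest lowest fold, genes with at least 4 regions, up to 4 genes per list, the smallest p values, regions with H3K4me1 gained by call, those next to the rule's limits, those over promoters, and Ppara and Cpt2; Cpt2 had none. A region next to the limits is not reported here. Peak sequences were not used here, as no genome was given. Alternatives were other scalings, filters, overlaps, covariates and leaving out each library.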

Additional observations from a re-analysis of the deposited data

Results flagged for a closer look

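In groups of 4 livers with or without Ppara, 46 groups of values were examined for a library far from the others, and 3 stood apart; chance flags about 1 in 20 such groups. The share of regions with an H3K4me1 peak was 52.0% in Cpt2 KO replicate 1, while the other 3 Ppara-intact livers were at 28.6% to 31.0%. At the region beside Parp16 the H3K4me1 fold was 7.17 in Cpt2 KO replicate 1, above 5.99 to 6.16 in the other Ppara-intact livers. At the region in Agxt2 the H3K4me1 fold was 5.40 in Ppara KO replicate 1, below 9.17 to 9.71 in the other Ppara-null livers.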

How the results depend on the processing

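Of 98 alternative values of the main counts and shares, 66 stayed within the limits set for a change and 32 moved; no named value changed sign. For H3K4me1, limma called 0 regions (0 intervals) and under the alternatives 1 (19) without centring, 9 (86) with uncalled libraries filled, and 0 (16) with peaks of −log10 q of at least 10. Leaving out 1 library at a time gave 0 to 17 regions and 0 to 581 intervals. For DKO against Ppara KO, limma called 0 regions and 1 interval; it called 9 (463) without centring, and 0 intervals with uncalled libraries filled and with smallest peak width as a covariate. Leaving out 1 library gave 0 to 1 regions and 0 to 120 intervals, the highest without DKO replicate 1. A call in all 4 Ppara-null libraries left 416 regions, with a gain of H3K4me1 calls of 44.1 points; leaving out 1 library gave 513 to 2878 regions and 21.0 to 40.3 points. The upper count came with calls in 2 of the 3 remaining Ppara-null libraries (1586 to 2878 regions, 21.0 to 27.7 points) and the lower with calls in all 3, added after the data were seen (628, 636, 541 and 513 regions, 38.4 to 40.3 points). Without 1 Ppara-intact library the count was 1246 to 1702. With the regions kept, leaving out 1 H3K4me1 library gave 31.8 to 39.8 points. Libraries of smallest peak width of 210 bases or more gave 21.9 points. With the stricter −log10 q of 10 the choice gave 963 regions, 726 of them shared (67.9% of the regions, 75.4% of the stricter set). Limiting genes to 10000 or 1000 bases left 21 and 17 of 33 list genes. With width class as a term, added after the data were seen, 0 regions were called. Replicate numbers did not pair the livers: correlations of same-numbered deviations ran from −0.49 to 0.11 for H3K4me1 and were 0.04 for H3K27ac. With the replicate block limma called 0 regions in both contrasts, and 0 and 1 intervals. The peaks do not give read depth, so an absent peak is a signal under the caller's threshold and not an absent mark.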
